A study of Mus musculus with 8 samples.

Results

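The transcripts of 10 enzymes of serine synthesis and folate-dependent one-carbon metabolism were measured in hearts of mice lacking mtSSB, the mitochondrial single-stranded DNA-binding protein encoded by Ssbp1. The genes were chosen by name, as Phgdh, Psat1, Psph, Shmt1, Shmt2, Mthfd1, Mthfd2, Mthfd1l, Mthfd2l and Aldh1l2, and are 10 of the 55383 genes in the table. Total RNA of whole hearts was sequenced at about 5 weeks of age in 2 knockout mice (labelled Ssbp1-/-) and 2 control mice (labelled Ssbp1+/+), all on an inbred C57BL/6N background. The knockout was conditional: loxP-flanked Ssbp1 was deleted by Cre recombinase under the muscle creatine kinase promoter (Ckmm), which is active in heart and skeletal muscle, so other cell types of a whole heart keep the gene. According to the study's description of the mice, the controls carried the loxP-flanked alleles without Cre. For a further 2 mice the title and the genotype field contradict each other, and these mice entered no comparison.

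Cells make serine from a glycolytic intermediate by the successive action of the products of Phgdh, Psat1 and Psph. Serine hydroxymethyltransferases, SHMT2 in mitochondria and SHMT1 in the cytosol, then pass a carbon unit from serine to tetrahydrofolate, leaving glycine, and the MTHFD enzymes and ALDH1L2 interconvert the folate-bound unit or release it as formate or carbon dioxide. The units are used for purines, thymidylate, methionine and the formylated initiator tRNA of mitochondrial translation, and in mammals several genes of the mitochondrial branch are known targets of the stress-responsive transcription factor ATF4.

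The library facts that bear on these genes were few. Depth was 25558246 and 25682093 reads in the knockouts and 24067849 and 19716305 in the controls, of which 56.2 to 58.0% in the knockouts and 62.7 to 66.7% in the controls came from mitochondrial genes. Values are normalized counts, that is, reads divided by a factor for each library, and 1 read was worth 0.765 to 0.824 normalized counts in the knockouts and 0.977 to 1.35 in the controls. Ssbp1 itself was measured at 170 and 163 in the knockouts, against 177 and 216 in the controls, a log2 fold change of -0.23 with an SE of 0.16 (adjusted p = 0.890, limma). Both knockouts were below both controls, but the whole-gene count includes exons outside the deletion and the RNA of cells that Cre does not reach, and so tests the labels poorly. The 7 cardiomyocyte markers, among them Myh6 and Tnnt2, summed to 602506 and 580077 in the knockouts and 606257 and 572641 in the controls.

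The promoters of 4 of the genes are shown because they span the range of differences described below, from Mthfd2 and Phgdh with the largest through Psat1 to Mthfd1 with the smallest. RefSeq (GRCm38.p6) gave a promoter window, 250 bases before to 50 after the start site, for 9 of the 10 genes, in 10 windows because Psat1 has 2 starts. Aldh1l2 was not matched. The 250 bases before the start are printed 5′ to 3′ on the gene's strand, with capitals for a CCAAT box on either strand (ATTGG where it is on the opposite strand). They lie at chr6:83317605-83317854 (minus strand, Mthfd2), chr3:98339970-98340219 (minus, Phgdh), chr19:15925060-15925309 (minus, Psat1) and chr12:76254982-76255231 (plus, Mthfd1). The RefSeq starts of Mthfd2 and Psat1 lie inside the gene spans that GENCODE gives for them.
Mthfd2 promoter: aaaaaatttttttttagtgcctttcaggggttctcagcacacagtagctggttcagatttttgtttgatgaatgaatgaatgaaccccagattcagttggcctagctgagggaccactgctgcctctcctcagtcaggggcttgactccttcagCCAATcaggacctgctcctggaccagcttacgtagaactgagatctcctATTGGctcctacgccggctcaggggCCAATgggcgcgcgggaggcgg
Phgdh promoter: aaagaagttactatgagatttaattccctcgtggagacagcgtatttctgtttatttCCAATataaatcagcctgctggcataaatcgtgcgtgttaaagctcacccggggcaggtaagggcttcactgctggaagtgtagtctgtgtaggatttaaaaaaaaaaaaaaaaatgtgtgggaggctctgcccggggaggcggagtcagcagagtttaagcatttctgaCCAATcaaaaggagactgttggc
Psat1 promoter, start 1: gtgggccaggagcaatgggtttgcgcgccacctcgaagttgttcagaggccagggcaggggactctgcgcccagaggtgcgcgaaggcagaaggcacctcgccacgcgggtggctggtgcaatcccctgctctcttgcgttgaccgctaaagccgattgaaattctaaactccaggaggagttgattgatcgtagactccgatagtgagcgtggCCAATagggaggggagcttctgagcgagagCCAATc
Mthfd1 promoter: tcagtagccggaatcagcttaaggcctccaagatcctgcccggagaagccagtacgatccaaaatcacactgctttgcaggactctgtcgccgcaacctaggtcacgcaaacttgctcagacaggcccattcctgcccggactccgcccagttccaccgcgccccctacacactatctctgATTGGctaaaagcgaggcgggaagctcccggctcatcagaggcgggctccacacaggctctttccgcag

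Of 5 motifs searched on both strands of the 300-base windows, CCAAT was found for 6 of the 9 genes with a window and in 37.4% of all 32851 RefSeq promoters of the same length. It stood 3 times in the Mthfd2 window (at -96, -47 and -22 from the start), 3 times at start 1 of Psat1 (-36, -6 and 23), and at -193 and -23 in Phgdh. It was also found in Mthfd1 (-69), Psph and Shmt1. Of these 6 genes, only Mthfd2 and Phgdh passed the limma test described below. GGGCGG, the GC box, was found for 6 of the 9 genes, against 35.7% of all promoters, and was in neither the Mthfd2 nor the Phgdh window. The composite ATF4-C/EBP element TGATGNAA, where N is any base (3.97% of all promoters), the cyclic AMP response element TGACGTCA (1.79%) and the E-box CACGTG (7.15%) were found in 0 of the 10 windows. A match describes the letters only, and the windows leave out introns and distal sequence.

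**Figure D1:**
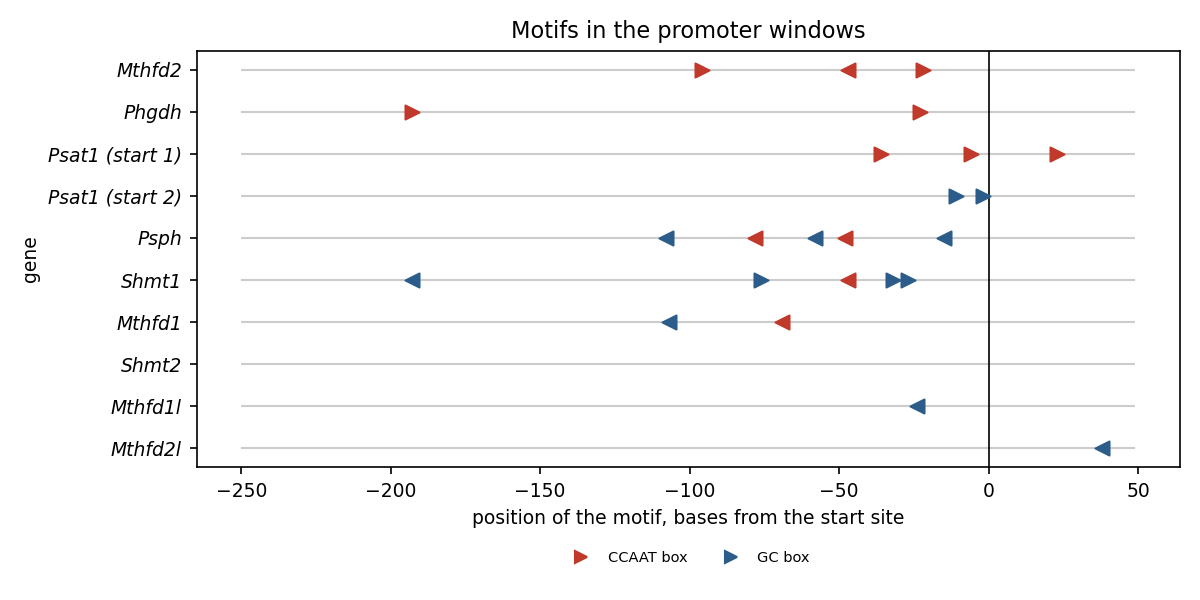
Motif positions in the promoter windows of the 9 genes with a RefSeq start (10 windows, Psat1 with 2), in bases from the start site on the horizontal axis. Each arrowhead is 1 match, pointing right on the gene's strand and left on the opposite strand, and the colour gives the motif. Mthfd2 and start 1 of Psat1 have 3 CCAAT boxes each, and Shmt2 has no match.

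To ask which of the 10 transcripts differed in the knockout hearts, all 14522 genes that reached 10 normalized counts in 2 or more of the 4 libraries were tested together with limma on log2(normalized count + 1). All 10 enzymes passed that filter, but Mthfd1l did so only through the knockouts, as both of its control values were under 10. Mthfd2 and Phgdh rose (2 of 10 at an adjusted p under 0.05, against 0.0757% of all genes tested) and 0 of 10 fell (against 0.0413%, or 0.117% called in either direction). Psat1 and Aldh1l2 were higher in both knockouts than in both controls but did not pass the threshold, with adjusted p of 0.0856 and 0.0762. At an unadjusted p under 0.05, 6 of the 10 were higher (against 3.08% of all genes) and 0 lower (against 3.02%). In 8 of the 10 both knockouts were above both controls, as in 18.1% of all genes, and the median log2 fold change was 0.89, against 0.0024 for all genes tested. Without Mthfd1l, which could pass the filter only by being higher, these values were 5 of 9, 7 of 9 and a median of 0.51. edgeR on the recovered reads called 2 of the 10 higher (against 0.0895% of all genes) and DESeq2 called 4, adding Psat1 and Aldh1l2 (against 0.303%) and none lower (against 0.131%). With the 2 mice of contradictory labels added by their genotype field, limma called 4 higher (against 0.256%) and none lower (against 0.0876%), and added by their title it called 0. In whole-heart RNA, a change in the number of cells of a type and a change in RNA per cell cannot be told apart. With 2 mice a group, the errors rest on the spread between few animals, which limma moderates with that of other genes.

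**Figure D2:**
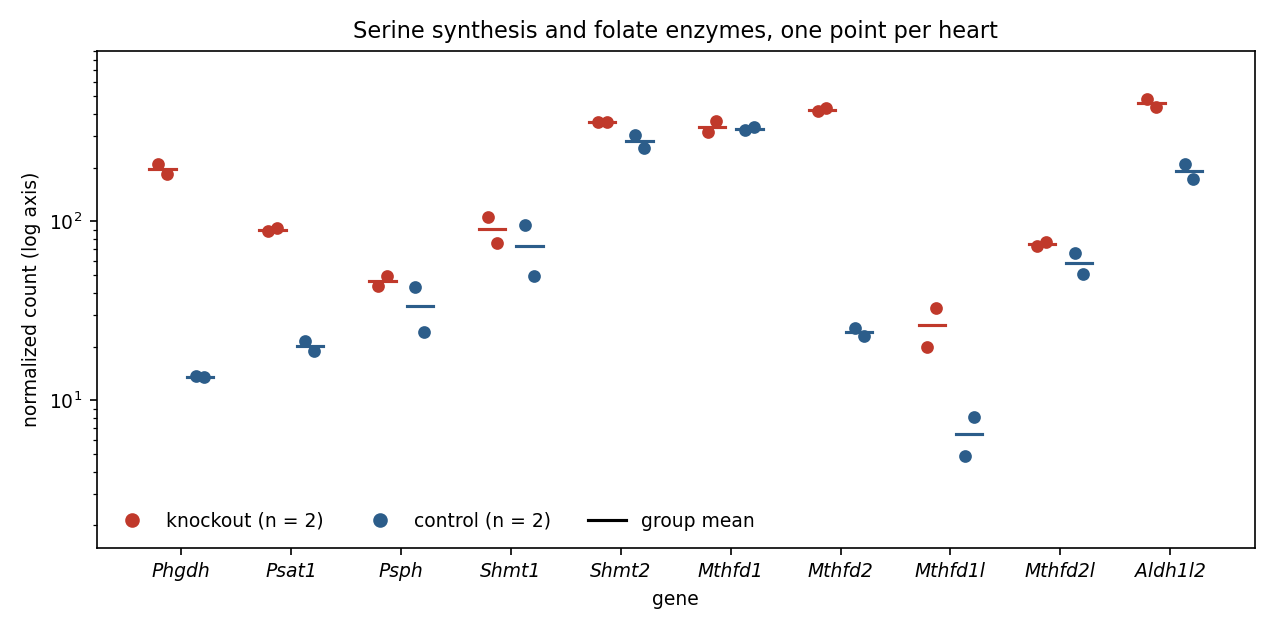
Normalized counts (vertical log axis) of the 10 enzymes in each heart, with 1 point per mouse, knockouts (n = 2, red, left) and controls (n = 2, blue, right), and a bar at each group mean. The knockout points of Mthfd2 sit at 413 and 430, the control points at 25.4 and 22.9, while for Mthfd1 the groups overlap.

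Serine synthesis was led by Phgdh, phosphoglycerate dehydrogenase, which catalyses the first committed step (ENSMUSG00000053398, chromosome 3, 98313170 to 98339990, minus strand). Phgdh was measured at 208 and 185 in the knockouts, against 13.7 and 13.5 in the controls. The reads behind these values were 253 and 242 in the knockouts and 14 and 10 in the controls, so the groups lay far apart and the control level rests on few reads. Phgdh rose 13.5-fold (95% interval 9.07 to 20.2), a log2 fold change of 3.76 with an SE of 0.24 (adjusted p = 0.0075, limma), rank 6 of 14522 genes by p. Without knockout replicate 1 the log2 fold change was 3.67 with an SE of 0.47 and an adjusted p of 0.057, and without knockout replicate 2 it was 3.84 with an SE of 0.45 and an adjusted p of 0.110, so that the call, but not the size, changed with 1 knockout left. Of the 31-base words in annotated Phgdh transcripts, 55.9% also occur in 23 other genes, most of all in Gm7901 (44.8%), so that Salmon could split reads between them and the level is uncertain to that extent. Of the 21 genes that share at least 1% of the words, 2 were not matched to the table and were not analysed here, and the other 19 summed to 5.77 and 3.06 normalized counts in the knockouts and 1.95 and 1.35 in the controls. These sums were themselves set by that split of reads, so they cannot tell how many reads counted for Phgdh came from other genes. That part was not tested.

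Psat1 encodes phosphoserine aminotransferase, the following step of the pathway (ENSMUSG00000024640, chromosome 19, 15904678 to 15947337, minus strand). It had 88.1 and 91.8 normalized counts in the knockouts, from 107 and 120 reads, against 21.5 and 18.9 in the controls, from 22 and 14 reads. The groups did not overlap, and the replicates of each lay close together. The fold difference was 4.30, with a log2 value of 2.11 and an SE of 0.26 (unadjusted p = 1.71e-04, adjusted p = 0.0856, limma), rank 29 of all genes. For Psat1, DESeq2 on the recovered reads gave an adjusted p of 0.0054. Psph, phosphoserine phosphatase, completes the pathway (chromosome 5, 129765558 to 129787449, minus strand). Psph was at 43.7 and 49.7 in the knockouts, against 43.0 and 24.2 in the controls, and the higher control lay just under the lower knockout. Its log2 difference was 0.51 (95% interval -0.35 to 1.38, adjusted p = 0.884, limma), so the steps of this short pathway had differences of unequal size.

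Of the serine hydroxymethyltransferases, mitochondrial Shmt2 (chromosome 10, 127517123 to 127522444, minus strand) had 359 and 358 normalized counts in the knockouts, against 303 and 257 in the controls. The knockouts lay together above both controls. The log2 difference was 0.36 with an SE of 0.14 (unadjusted p = 0.0377, adjusted p = 0.798, limma), 1.28-fold, which did not pass the threshold. Cytosolic Shmt1 (chromosome 11, 60788104 to 60811718, minus strand) was at 106 and 75.7 in the knockouts, against 95.8 and 49.8 in the controls. The groups overlapped, and the log2 difference of 0.37 had a 95% interval of -0.49 to 1.23 (adjusted p = 0.915, limma). That difference was negative in the fit without control replicate 2 (-0.09).

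Among the enzymes that carry the unit onward, Mthfd2, the mitochondrial methylenetetrahydrofolate dehydrogenase and cyclohydrolase of embryonic and dividing cells, had the largest difference of the 10 (ENSMUSG00000005667, chromosome 6, 83305691 to 83325908, minus strand). Mthfd2 was measured at 413 and 430 in the knockouts, from 501 and 562 reads, against 25.4 and 22.9 in the controls, from 26 and 17 reads. The lower knockout was far above the higher control. Mthfd2 rose 16.8-fold (95% interval 12.4 to 22.8), a log2 fold change of 4.07 with an SE of 0.18 (adjusted p = 0.0015, limma), rank 3 of all genes by p. None of the 31-base words of its annotated transcripts occurs in another gene, and Gm43890, which overlaps it on the same strand, had 3.30 and 0.765 normalized counts in the knockouts and 0 in both controls. Mthfd2l, the related dehydrogenase of adult tissues (chromosome 5, 90931117 to 91021368, plus strand), was at 72.5 and 76.5 in the knockouts, against 66.5 and 51.2 in the controls. The groups did not overlap, yet the log2 difference was 0.35 with a 95% interval of -0.23 to 0.92 (adjusted p = 0.882, limma).

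Aldh1l2, mitochondrial formyltetrahydrofolate dehydrogenase, oxidises the unit to carbon dioxide while making NADPH (chromosome 10, 83487450 to 83534140, minus strand). It had 481 and 438 normalized counts in the knockouts, from 584 and 573 reads, against 210 and 174 in the controls, from 215 and 129 reads. The groups were well separated, and the fold difference was 2.40, with a 95% interval of 0.90 to 1.62 and an SE of 0.15 on the log2 scale (unadjusted p = 1.26e-04, adjusted p = 0.0762, limma), rank 24 of all genes. Aldh1l2 had an adjusted p of 8.4e-06 with DESeq2 and of 0.0486 with limma without control replicate 1. Mthfd1l, the mitochondrial synthetase that releases formate (chromosome 10, 3973118 to 4167081, plus strand), was the lowest of the set. Mthfd1l had 19.8 and 32.9 normalized counts in the knockouts, from 24 and 43 reads, against 4.89 and 8.08 in the controls, from 5 and 6 reads. The groups did not overlap, and the log2 difference was 1.86 with an SE of 0.55 (unadjusted p = 0.0139, adjusted p = 0.697, limma). At so few reads its size is known only to a 95% interval of 0.53 to 3.19.

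Mthfd1, the trifunctional enzyme of the cytosol (chromosome 12, 76255298 to 76319803, plus strand), gave the smallest difference. It was measured at 315 and 363 in the knockouts, against 324 and 335 in the controls. The knockouts lay on either side of the controls, and the log2 difference of 0.03 had a 95% interval of -0.29 to 0.35 (adjusted p = 0.981, limma). Without knockout replicate 2 it was -0.068. The 95% intervals of Mthfd2, Phgdh, Psat1 and Aldh1l2 all lay above that of Mthfd1. So did that of Mthfd1l, which could pass the filter only by being higher.

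**Figure D3:**
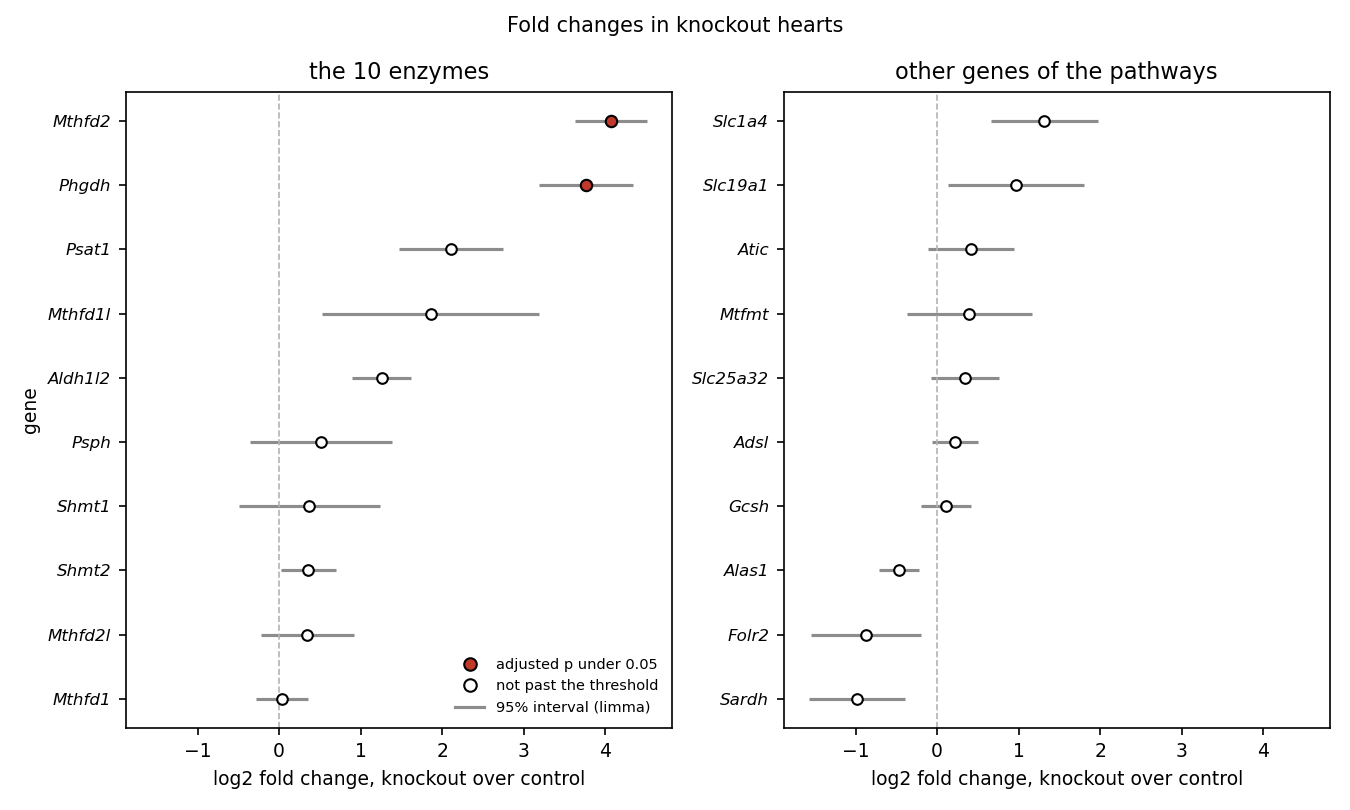
Log2 fold changes (knockout over control, log2(normalized count + 1) scale) with 95% limma intervals for the 10 enzymes (left) and the named genes of neighbouring pathways (right), from 2 knockout and 2 control hearts. Filled points passed an adjusted p of 0.05: Mthfd2 at 4.07 and Phgdh at 3.76, and none of the neighbouring genes.

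The levels of different genes were compared as normalized counts per kb of annotated exon. In the knockouts the order of the group means was Mthfd2 (202), Shmt2 (156), Phgdh and Mthfd1 (both 104), Aldh1l2 (75.5), Shmt1 (31.8), Psat1 (30.6), Mthfd2l (27.7), Psph (26.9) and Mthfd1l (6.17). In the controls it was Shmt2 (122), Mthfd1 (102), Aldh1l2 (31.5), Shmt1 (25.5), Mthfd2l (21.8), Psph (19.4), Mthfd2 (11.6), Phgdh (7.17), Psat1 (6.87) and Mthfd1l (1.52). Mthfd2 thus stood first of the 10 in the knockouts and seventh in the controls, and Phgdh and Psat1, low in the controls, stood level with Mthfd1 and Shmt1 in the knockouts. Neighbours such as Phgdh and Mthfd1, or Mthfd2l and Psph, lay within each other's spread in the knockouts. The order also depends on the length used. Per kb of the longest transcript, Mthfd2l (34.5) and Psat1 (34.4) stood above Shmt1 (31.8) in the knockouts. In the controls Mthfd2l (27.2) then stood above Shmt1 (25.5), and Psat1 (7.71) above Phgdh (7.17).

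As a share of the summed counts per kb of the 10 enzymes, Mthfd2 took 25.9 and 26.9% in the knockouts, against 3.23 and 3.43% in the controls. Phgdh took 14.4 and 12.8% in the knockouts, against 1.92 and 2.22% in the controls. Shmt2 took 20.4 and 20.3% in the knockouts, against 34.9 and 34.8% in the controls, although its own count was not lower. Summed per kb, the enzymes of the mitochondrial folate branch (Shmt2, Mthfd2, Mthfd2l, Mthfd1l, Aldh1l2) stood at 464 and 470 in the knockouts, against 204 and 172 in the controls. The cytosolic pair, Shmt1 and Mthfd1, stood at 134 and 138 in the knockouts, against 134 and 121 in the controls. The ratio of the mitochondrial to the cytosolic sum was 3.46 and 3.39 in the knockouts, against 1.53 and 1.42 in the controls. Mthfd2 alone gave 198 and 206 of the mitochondrial sum in the knockouts, against 12.2 and 11.0 in the controls. Aldh1l2 is in the mitochondrial sum, but its cytosolic relative Aldh1l1, not among the 10, is in neither. The sums, made from the tested genes, were given no test of their own.

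**Figure D4:**
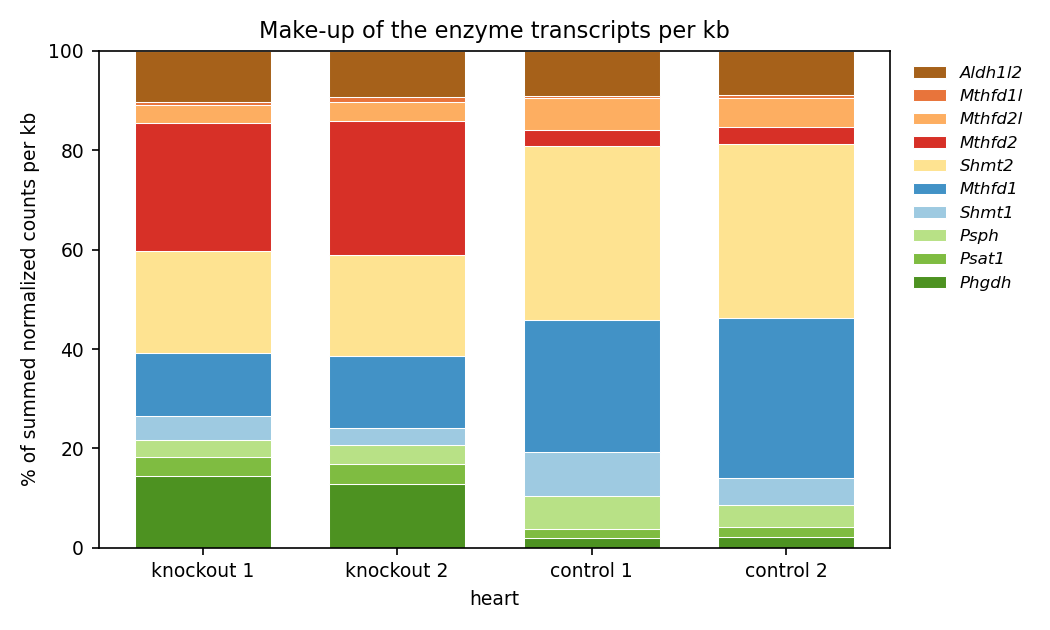
Share of each enzyme in the summed normalized counts per kb of exon (vertical axis, percent) in the 2 knockout hearts (left) and the 2 control hearts (right). The red Mthfd2 segment takes 25.9 and 26.9% of the knockout bars and 3.23 and 3.43% of the control bars.

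For 4 pairs of related enzymes the ratio of normalized counts within each library was compared. Log2 differences and tests of these ratios were computed after adding 1 to each count, so they differ slightly from those of the plain ratios printed here, most for the low Mthfd1l. Mthfd2 to Mthfd2l was 5.69 and 5.62 in the knockouts, against 0.382 and 0.447 in the controls. Mthfd2 was above Mthfd2l in both knockouts and below it in both controls, and with 1 added the ratio differed by 3.72 on the log2 scale. Mthfd1l to Mthfd1 was 0.0628 and 0.0907 in the knockouts, against 0.0151 and 0.0241 in the controls, and the log2 difference with 1 added to each count was 1.83. For both ratios the groups did not overlap, and the two-sided exact permutation p of 0.333 is the smallest that 2 against 2 allows (0.667 after adjustment over the 4 ratios), so this design could not reach 0.05. Shmt2 to Shmt1 overlapped, at 3.38 and 4.73 in the knockouts, against 3.16 and 5.16 in the controls (exact permutation p = 1). Aldh1l2 to its cytosolic relative Aldh1l1 was 4.03 and 9.88 in the knockouts, against 1.58 and 9.21 in the controls, and overlapped as well (exact permutation p = 0.667, adjusted 0.889). Without control replicate 1 its log2 difference, 0.74 in all 4 hearts, was -0.50.

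The neighbouring pathways were represented by 62 listed genes, of which 57 were tested. None was called in either direction by limma or edgeR. At an unadjusted p under 0.05 (limma), 2 were higher (against 3.08% of all genes) and 3 lower (against 3.02%). DESeq2 called 1, Alas1, as lower (against 0.131% of all genes). Both knockouts were above both controls in 14 of the 57 (against 18.1% of all genes) and below in 6 (against 17.5%). The median log2 fold change was 0.14, against 0.0024 for all genes tested. By list, medians ran between -0.04 for serine and glycine use and 0.51 for the choline-derived units, whose 5 genes include low ones.

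Of the transporters, Slc1a4, a neutral amino acid transporter that carries serine, was at 70.0 and 84.9 in the knockouts, against 34.2 and 26.9 in the controls. The groups did not overlap, but the log2 difference of 1.32 (SE 0.27) did not pass over all genes (adjusted p = 0.50, limma). Slc19a1, the reduced folate carrier, was at 39.5 and 34.4 in the knockouts, against 16.6 and 20.2 in the controls (log2 difference 0.97, adjusted p = 0.788, limma). Slc25a32, the mitochondrial folate carrier, was at 266 and 204 in the knockouts, against 182 and 186 in the controls (0.34, adjusted p = 0.815, limma). These carriers did not overlap between the groups, and Folr2, a folate receptor known from macrophages, did not overlap in the other direction, at 37.9 and 57.4 in the knockouts, against 91.9 and 80.8 in the controls (log2 difference -0.87, adjusted p = 0.750, limma). The 6 macrophage markers summed to 1498 and 1497 in the knockouts and 2097 and 1212 in the controls. Of the 6, 1 was below both controls in both knockouts (against 17.5% of all genes), and 3 had a positive log2 difference. The 1 below was Cd68, at 39.5 and 35.2 in the knockouts, against 81.1 and 57.9 in the controls. The part of macrophages in the Folr2 difference was not tested.

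Among users of glycine and folate, Alas1, which condenses glycine with succinyl-CoA at the start of haem synthesis, was at 1865 and 1742 in the knockouts, against 2672 and 2331 in the controls. Alas1 was lower in both knockouts, with a log2 difference of -0.47 (adjusted p = 0.530, limma; 0.030 by DESeq2). Sardh, mitochondrial sarcosine dehydrogenase, was at 78.3 and 52.8 in the knockouts, against 127 and 129 in the controls (log2 difference -0.98, adjusted p = 0.622, limma). Both were below their controls in each knockout without passing the limma threshold. Mtfmt, which formylates the mitochondrial initiator tRNA, had a log2 difference of 0.40, and the groups overlapped. Gcsh, of the glycine cleavage system, had a log2 difference of 0.11, and the purine synthesis genes Atic and Adsl had 0.41 and 0.22, none past the test.

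Liver transcripts were present in the heart libraries in unequal amounts. The 4 liver markers Alb, Apoa1, Ttr and Serpina1a summed to 1925 and 477 normalized counts in the knockouts, against 3704 and 8.08 in the controls. All 4 had the same order of libraries, control 1 highest, then knockout 1, knockout 2 and control 2. That order was found in 0 of the 10 enzymes, in 9 of the 57 neighbouring genes (15.8%) and in 5.59% of all genes tested. It puts control 1 highest, so a gene with both knockouts above both controls, as 8 of the 10 enzymes were, could not show it. The 0 of 10 therefore cannot tell whether liver RNA reached the enzymes. The 9 genes, described after their values were seen, include several that are highly expressed in liver. Bhmt, a betaine-dependent methyltransferase, had 181 and 26.8 in the knockouts, against 243 and 2.69 in the controls. Aldh1l1 had 119 and 44.4 in the knockouts, against 133 and 18.9 in the controls and is the denominator of the Aldh1l2 to Aldh1l1 ratio given above. Mat1a, Gnmt and Ftcd followed the same order. Control 1, with the most liver RNA, stood to control 2, with the least, at 1.02 in Phgdh, 1.11 in Mthfd2, 1.14 in Psat1, 1.18 in Shmt2, 1.21 in Aldh1l2, 1.30 in Mthfd2l, 1.77 in Psph and 1.92 in Shmt1, at 0.967 in Mthfd1 and 0.605 in Mthfd1l, and at 7.05 in Aldh1l1. These ratios each compare 1 library with 1 library, and the part of liver RNA in the differences between the groups was not tested.

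**Figure D5:**
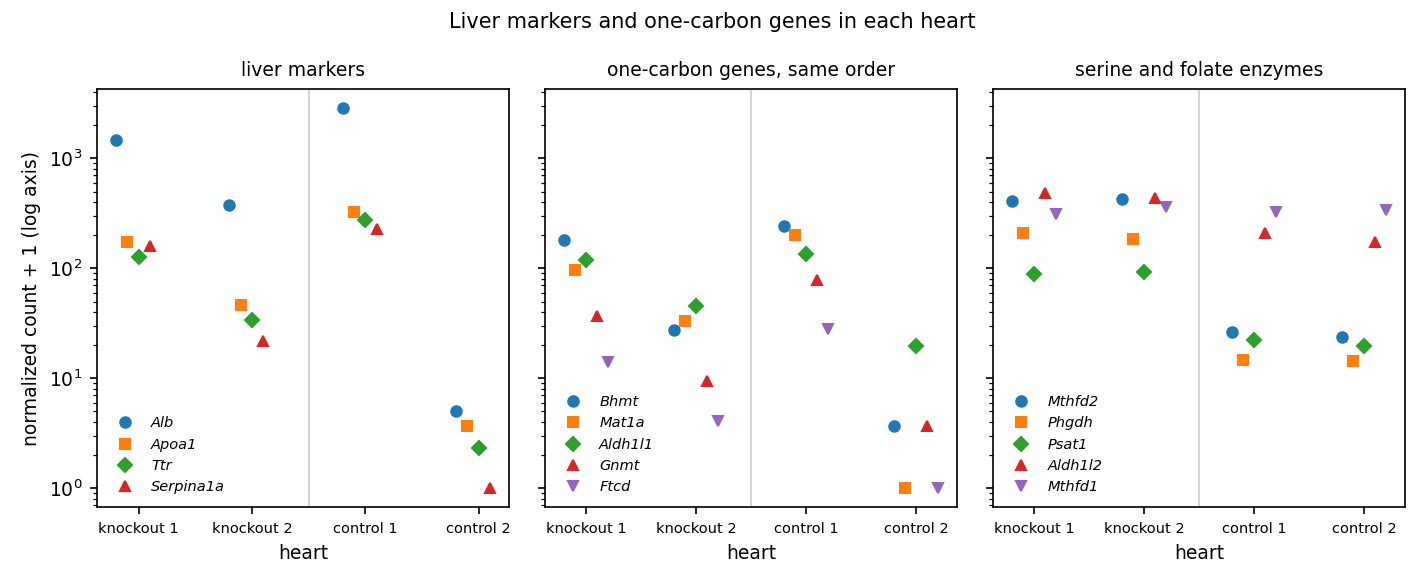
Normalized counts + 1 (log axis) in each heart, 2 knockouts left and 2 controls right of the line, for the 4 liver markers, 5 one-carbon genes with the same order of libraries, and 5 of the enzymes; each point is 1 gene in 1 heart. Alb is at 1469 and 378 in the knockouts and 2875 and 4.04 in the controls. Mthfd2, Phgdh and Psat1 have both knockouts above both controls and so cannot have the order of the liver markers.

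Other marker lists were uneven as well, and none of their genes was called. The 5 erythroid markers summed to 14926 and 41866 in the knockouts and 18944 and 14398 in the controls, and the 7 genes of dividing cells, in which Mthfd2 is known to be high, to 485 and 1064 in the knockouts and 1120 and 748 in the controls. In both sums the groups overlapped. Fibroblast markers summed to 7282 and 8280 in the knockouts and 9460 and 8778 in the controls, so that both knockouts were below both controls. Of the 6 fibroblast markers, 3 were below both controls in both knockouts (against 17.5% of all genes), and 0 had an unadjusted p under 0.05 (limma). The median log2 difference of the 6 was -0.23, against 0.0024 for all genes tested. The part of these cell types in the differences of the enzymes was not tested. The skeletal muscle and adipocyte lists had 0 genes above the filter.

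The genes most like Mthfd2 and Phgdh were sought by Euclidean distance between centred log2 values over the 4 libraries, among 10625 genes with a mean of at least 50. Each was the nearest to the other, at 0.36, and both lists continued with Trib3, Asns, Slc7a5 and Psat1. Mthfd2, Phgdh, Trib3, Slc7a5 and Psat1 had both control values under 50 and reached that mean only through the knockouts. Asns, with control values of 50.8 and 14.8, also needed its knockout values to reach it. The listed genes were picked for a difference like that of Mthfd2 and Phgdh, so their calls are no separate evidence. Trib3, a stress-induced pseudokinase, was at 152 and 202 in the knockouts, against 16.6 and 25.6 in the controls, and rose by a log2 fold change of 3.03 (adjusted p = 0.040, limma). Slc7a5, a carrier of large neutral amino acids, was at 204 and 223 in the knockouts, against 44.0 and 35.0 in the controls, and rose by 2.41 (adjusted p = 0.0255, limma). Neither call held without knockout replicate 1, knockout replicate 2 or control replicate 2, although the sizes stayed close. In that order, the log2 fold change of Trib3 was 3.23, 2.83 and 3.32 (adjusted p = 0.0847, 0.331 and 0.0713), and that of Slc7a5 was 2.48, 2.35 and 2.25 (adjusted p = 0.0899, 0.327 and 0.0844). Asns, asparagine synthetase, was at 281 and 270 in the knockouts, against 50.8 and 14.8 in the controls, and its log2 difference of 3.27 did not pass (adjusted p = 0.257, limma), but passed at 4.13 without control replicate 1 (adjusted p = 0.0045) and at 2.42 without control replicate 2 (adjusted p = 0.0450). With 4 libraries in 2 groups, likeness mostly measures how close the group differences are in size. The distance from Mthfd2 was 1.19 for Trib3, 1.37 for Asns, 1.66 for Slc7a5 and 1.97 for Psat1. The distance from Phgdh was 0.94 for Trib3, 1.29 for Asns, 1.38 for Slc7a5 and 1.67 for Psat1. No gene other than Phgdh thus lay within 1 of Mthfd2, while Trib3 did lie within 1 of Phgdh.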

How the data were processed

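Stranded TruSeq libraries were made from hearts of 6 mice. The authors used STAR 2.7.3a for alignment (GRCm38.p6, with nuclear copies of mitochondrial DNA masked), Salmon 1.1.0 for quantification on GENCODE vM24, and DESeq2 1.26.0 for normalization. The authors deposited normalized counts (a signal scaled by library), of which 100% were whole multiples of 1 read within 0.001, so reads were recovered. A deposited table of the authors' own fold changes and p-values was not used, and 0 columns were left unmapped.

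The 4 mice with agreeing labels were compared. Values were log2(normalized count + 1), which understates changes of low genes. Genes with at least 10 in at least 2 libraries were tested two-sided with limma 3.58.1 (R 4.3.3, mean-variance trend, Benjamini-Hochberg at 0.05 over 14522 genes), after tests on simulated data. edgeR 4.0.16 and DESeq2 1.42.0 on recovered reads, other pseudocounts, filters and scalings, a replicate block, each library left out, and the 2 other mice grouped by title or by genotype field were alternatives. Ratios used exact permutation tests (scipy 1.17.1). Gene positions and exon lengths came from GENCODE vM21 on GRCm38, promoters from RefSeq on GRCm38.p6. The limma p-values rest on the spread between these mice, moderated by the spread of other genes at a like level. Where a library left out leaves 1 mouse in a group, that group has no spread of its own.

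The genes, lists and tests were chosen with earlier results of these data known. Named were all 10 enzymes, up to 3 genes with the smallest p per list, the 5 genes most like Mthfd2 and Phgdh, Ssbp1, and liver-ordered genes after their values were seen. Some genes that this rule names are not reported here.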

Additional observations from a re-analysis of the deposited data

Results flagged for a closer look

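The mice numbered 585H and 586H were in no comparison, because the title of 585H gives control and its genotype field knockout, and the title of 586H gives knockout and its genotype field control. Each is 1 mouse with 2 technical runs combined, and no group was inferred for either. A value was singled out where it was more than 2 times the higher control. In mouse 585H this held for Mthfd2 at 536, Phgdh at 218, Psat1 at 124, Aldh1l2 at 546 and Mthfd1l at 18.4 normalized counts. The first 4 of these were also above both mice with agreeing knockout labels. In mouse 586H it held for Mthfd1l alone of the 10 enzymes, at 36.6, which was above the knockouts as well.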

How the results depend on the processing

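Mthfd2 passed the threshold in each alternative but the 6 mice grouped by title, where its log2 fold change was 1.32 (adjusted p = 0.9993). At a minimum of 50, however, Mthfd2, Phgdh and Psat1 reached the filter only through the knockouts. Their results at that minimum are therefore no separate evidence. Phgdh lost its call by title (0.70) and, at 3.67 and 3.84, without knockout replicate 1 (adjusted p = 0.057) and without knockout replicate 2 (0.110). Of 165 values of the 10 enzymes under alternatives, 149 kept direction and call, 4 lost a call, 7 gained one (Psat1 and Aldh1l2) and 5 changed sign: Shmt1 (-0.093 to 0.84 with a library left out, lowest without control replicate 2, and -0.057 by title), Mthfd1 (-0.068 to 0.14 with a library left out, lowest without knockout replicate 2, and -0.022 by genotype field) and Mthfd2l (-0.10 by genotype field). The number of the 10 enzymes called higher, 2, was 4 with DESeq2 and by genotype field, 0 by title, and 1 to 3 with a library left out. Of all genes, 11 higher and 6 lower calls became 44 and 19 with DESeq2, 38 and 13 by genotype field, 0 and 0 by title, and 6 and 0 without a trend. With a library left out they ranged between 1 and 21 higher and between 4 and 12 lower, and a minimum of 50 gave 17 higher. In serine and glycine use DESeq2 called 1 gene lower. The Shmt2 to Shmt1 log2 ratio difference (-0.01) was 0.0050 with a pseudocount of 5, 0.21 by title, and -0.36 to 0.34 with a library left out, where that of Aldh1l2 to Aldh1l1 (0.74) ranged between -0.50 and 1.98. The same alternatives, chosen after seeing the data for 14 other named genes, turned the sign of Gcsh (-0.022 by genotype field) and Ssbp1 (0.0038 by title). Besides the fits given above, Trib3 lost its call by title, with equal nuclear totals, with only a value above 0 required, and without a trend. Slc7a5 also lost its call by title and without a trend. Asns gained a call with DESeq2, by genotype field and with the replicate block. The replicate numbers are shared by number only. The correlation of deviations was 0.31, and with 2 libraries a group both pairs must give the same value. The replicate block gave 23 genes higher and an adjusted p of 0.0238 for Aldh1l2. Aldh1l2 also passed without control replicate 1 (0.0486). Psph and Mthfd1l had no value at a minimum of 50, nor Mthfd1l without either knockout. The causes were not tested, and depth limits Mthfd1l, Phgdh, Mthfd2 and Psat1 in the controls to few reads.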

Other observations

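Further values of the mice with contradictory labels were as follows. In mouse 586H, Mthfd2 was at 28.5, Psat1 at 24.4 and Aldh1l2 at 197 normalized counts, close to the controls, and Phgdh was at 4.07, from 3 reads, below both controls. In mouse 585H, Mthfd2 to Mthfd2l was 12.3, and in mouse 586H it was 0.323. Mthfd2l itself was at 43.7 in 585H and 88.1 in 586H, the lowest and highest of the 6 hearts, and Mthfd1 was at 314 in 585H and 344 in 586H. Shmt2 was at 379 in 585H, above the 4 compared hearts, and at 313 in 586H. Shmt1 was at 101 in 585H and 52.9 in 586H, and Psph at 42.0 in 585H and 47.4 in 586H. The 4 liver markers summed to 1035 in 585H and 891 in 586H.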
